A study of Mus musculus with 8 samples.

Results

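Retinoid uptake and metabolism was described from 9 genes, chosen by their role in the handling of vitamin A among the 49315 genes counted, in RNA of isolated back skin epidermis. The genes are Stra6, Lrat, Rdh10, Dhrs9, Aldh1a3, Crabp1, Crabp2, Cyp26b1 and Rarg. They were picked with the KO against WT differences of these same libraries known, so those differences are given here as a description with no test. RNA was sequenced in 5 libraries labelled Tgfa KO and 3 labelled WT, all from mice aged 22 months and all with keratinocytes as the labelled cell type. Tgfa codes for one of the ligands that activate the EGF receptor. The labels give neither the design of the Tgfa allele nor the strain, and they do not say whether each library is a separate animal, so the spread between libraries may be technical. Library names end in bl for KO replicates 3 to 5 and in br for KO replicates 1 and 2 and for the 3 WT libraries, and the labels do not explain these endings.

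Retinol travels in blood on a carrier protein and enters cells through a membrane transporter. Inside the cell it is stored as an ester or oxidized by way of retinaldehyde to retinoic acid, which acts through nuclear receptors and is broken down by enzymes of the CYP26 family. In skin, retinoic acid is known for its effects on keratinocyte differentiation, sebaceous glands and the hair cycle. Among the 9 genes, Stra6 encodes the transporter, Lrat the enzyme that esterifies retinol, Rdh10 and Dhrs9 dehydrogenases that oxidize retinol, and Aldh1a3 a dehydrogenase that makes retinoic acid from retinaldehyde. Crabp1 and Crabp2 encode the cellular retinoic acid binding proteins, Cyp26b1 an enzyme that degrades retinoic acid, and Rarg the retinoic acid receptor gamma.

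Promoters of 3 of the genes are shown because Stra6 and Lrat differed most between the genotypes and Rarg was the most abundant. RefSeq promoters on GRCm38.p6 were matched for 6 of the 9 genes, at 10 start sites. Each line gives the 250 bases before a start site, 5′ to 3′ on the strand of the gene, for Stra6 (chr9:58128838-58129087, plus strand), Lrat (chr3:82903975-82904224, minus strand) and Rarg (chr15:102257523-102257772, minus strand). Stra6 has 4 start sites and Rarg 2, of which the first listed is shown. The start sites of Stra6, Cyp26b1 and Dhrs9 and the Rarg start site not shown lie inside the spans of the genes given below. Capitals mark a half-site to which retinoic acid receptors can bind, searched on both strands as AGGTCA or as its variants AGTTCA or else GGGTCA or else GGTTCA, and a TATAA on the sense strand within the last 50 bases.
Stra6: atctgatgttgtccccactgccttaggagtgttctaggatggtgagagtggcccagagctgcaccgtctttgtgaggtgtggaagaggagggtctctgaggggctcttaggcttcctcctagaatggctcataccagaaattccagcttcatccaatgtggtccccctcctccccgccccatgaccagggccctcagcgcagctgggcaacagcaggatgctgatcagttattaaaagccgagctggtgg
Lrat: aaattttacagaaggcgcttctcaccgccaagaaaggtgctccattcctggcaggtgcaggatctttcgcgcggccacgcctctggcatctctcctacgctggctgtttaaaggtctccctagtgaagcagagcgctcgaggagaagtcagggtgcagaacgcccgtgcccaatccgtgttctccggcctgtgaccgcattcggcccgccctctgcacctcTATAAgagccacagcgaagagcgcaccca
Rarg: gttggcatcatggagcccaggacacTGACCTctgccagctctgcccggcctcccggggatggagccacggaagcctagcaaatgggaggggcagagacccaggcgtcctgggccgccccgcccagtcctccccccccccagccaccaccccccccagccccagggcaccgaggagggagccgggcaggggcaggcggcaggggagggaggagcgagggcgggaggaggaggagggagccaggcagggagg
A half-site was found at 2 of the 10 start sites, 1 of Rarg and 1 of Dhrs9, and both read TGACCT, the reverse complement of AGGTCA. Of 32851 promoters of the same length 38.6% held a half-site. Pairs of half-sites 1, 2 or 5 bases apart were at 0 of the 10 start sites and in 0.164%, 0.174% and 0.0883% of all promoters. A TATAA began 29 bases before the Lrat start and was in the last 50 bases at none of the other 9 start sites, against 4.93% of all promoters. Farther from the start and outside that search, the 250 bases of Cyp26b1 and of Dhrs9 also held a TATAA. The share of all promoters with a TATAA there was not counted.

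Total counts were 5313552 to 17417500 in KO libraries and 12968728 to 18292303 in WT libraries, and values below are normalised read counts in CPM, with library sizes scaled by TMM factors. Tgfa was 34.4 to 131.7 CPM in KO libraries and 85.1 to 111.7 CPM in WT libraries (log2 fold change -0.61, SE 0.43, edgeR adjusted p = 0.899). The library labelled KO replicate 1 was above every WT library. Since the design of the allele is not given, the Tgfa level cannot tell whether that label is right. Olfactory and vomeronasal receptor genes, whose known site of use is the nose, had 4.56 counts per kb of exon in KO replicate 2 and 1.83 in WT replicate 3, against 0.121 to 0.933 in the other 6 libraries. Markers of keratinocytes summed to 11009.7 to 25760 CPM in KO and 10281.4 to 20275 CPM in WT. In bulk RNA, fewer cells of a type and less RNA per cell cannot be told apart.

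Stra6 and Lrat, the genes of uptake and storage, had the largest differences between the genotypes, and both were higher in KO. Stra6 (ENSMUSG00000032327, chromosome 9, 58063788 to 58153996, plus strand, GRCm38) had 14, 22.9, 20.6, 32.7 and 20.4 CPM in KO replicates 1 to 5, against 3.75, 2.25 and 5.71 CPM in WT replicates 1 to 3. Every KO library was above every WT library, and KO replicate 4 was the highest. The values rest on 132 to 573 counts in KO libraries and 34 to 73 counts in WT libraries. In KO replicate 2, with the most receptor gene counts, the 132 Stra6 counts compare with 26.6 that the receptor gene density gives over its exon length. The log2 fold change of Stra6, KO minus WT, was 2.51 (SE 0.39), between 1.94 without WT replicate 2 and 2.86 without WT replicate 3. It was 2.16 among libraries ending in br alone. No exon base of Stra6 is shared with another gene in the files.

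Lrat (ENSMUSG00000028003, chromosome 3, 82892579 to 82903973, minus strand) had few counts in WT. It had 3.1, 6.43, 2.44, 10.8 and 11.8 CPM in KO replicates 1 to 5, against 0.056, 0.331 and 1.41 CPM in WT replicates 1 to 3. All KO values were above all WT values, with KO replicates 4 and 5 the highest. The counts were 42, 37, 39, 189 and 170 in KO replicates 1 to 5, against 1, 5 and 18 in WT replicates 1 to 3. At the receptor gene density, the exon length of Lrat would hold 24.4 counts in KO replicate 2 and 9.8 in WT replicate 3, against 37 and 18 observed. The log2 fold change of Lrat was 3.55 (SE 0.97), between 2.85 without WT replicate 2 and 5.13 without WT replicate 3. Subtracting the receptor gene density from every gene, an alternative chosen after seeing the data, gave 4.83.

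**Figure D1:**
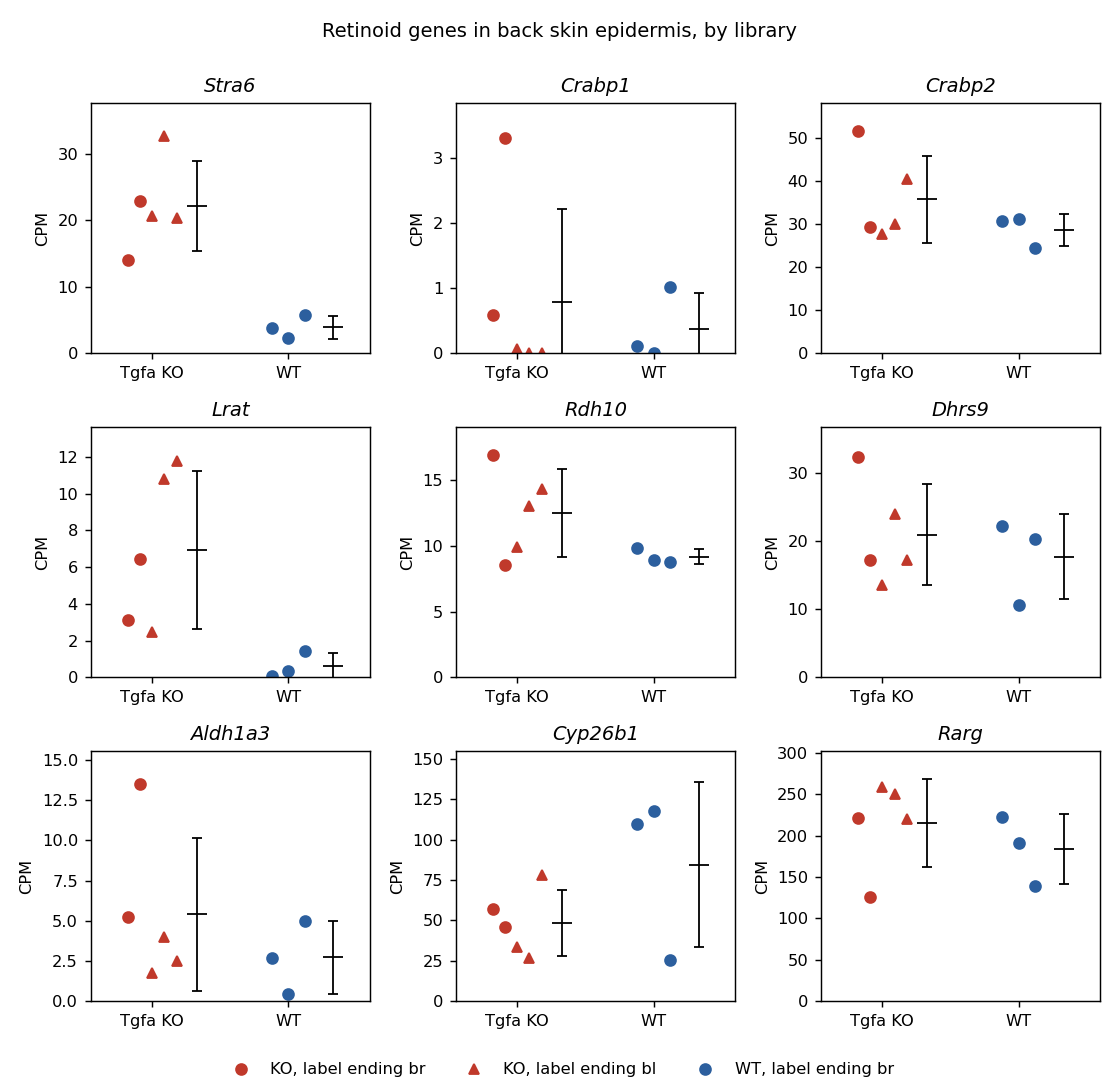
CPM of each of the 9 genes by library (circles, names ending in br; triangles, names ending in bl), with 5 KO libraries left and 3 WT libraries right and the mean with its SD in black, cut at 0 where the SD reaches below it. KO points lie above all WT points for Stra6 and Lrat and overlap with them for the other 7 genes.

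The genes that oxidize retinol overlapped between the genotypes. Rdh10 (ENSMUSG00000025921, chromosome 1, 16105774 to 16133734, plus strand) had 16.9, 8.51, 9.88, 13 and 14.3 CPM in KO replicates 1 to 5, against 9.85, 8.93 and 8.75 CPM in WT replicates 1 to 3. KO replicate 2 was the lowest of the 8 libraries, and the other 4 KO libraries were above all WT libraries. For Rdh10 the log2 fold change was 0.45 (SE 0.27), or 0.21 without WT replicate 2. Dhrs9 (ENSMUSG00000027068, chromosome 2, 69380445 to 69404533, plus strand) had 32.3, 17.2, 13.6, 24 and 17.2 CPM in KO replicates 1 to 5, against 22.2, 10.6 and 20.3 CPM in WT replicates 1 to 3. The lowest value was that of WT replicate 2 and the highest that of the library labelled KO replicate 1. For Dhrs9 the log2 fold change was 0.24 (SE 0.34), and it turned to -0.25 without WT replicate 2.

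Aldh1a3, whose product carries out the last step to retinoic acid, spread widely within both genotypes. Aldh1a3 (ENSMUSG00000015134, chromosome 7, 66390890 to 66427517, minus strand) had 5.23, 13.5, 1.75, 3.99 and 2.51 CPM in KO replicates 1 to 5, against 2.69, 0.463 and 5 CPM in WT replicates 1 to 3. KO replicate 2 was the highest, and WT replicate 3 was above 3 of the 5 KO libraries. For Aldh1a3 the log2 fold change was 0.98 (SE 0.83), 0.27 without KO replicate 2, 0.18 without WT replicate 2 and 1.72 without WT replicate 3.

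Of the binding proteins, Crabp2 was well measured and Crabp1 was not. Crabp2 (ENSMUSG00000004885, chromosome 3, 87948666 to 87953376, plus strand) had 51.5, 29.4, 27.6, 30 and 40.4 CPM in KO replicates 1 to 5, against 30.6, 31.2 and 24.5 CPM in WT replicates 1 to 3. The groups overlapped, with the library labelled KO replicate 1 and KO replicate 5 above all others. For Crabp2 the log2 fold change was 0.32 (SE 0.26), or 0.15 without the library labelled KO replicate 1. Crabp1 (ENSMUSG00000032291, chromosome 9, 54764748 to 54773110, plus strand) had 8, 19, 1, 0 and 0 counts in KO replicates 1 to 5, against 2, 0 and 13 counts in WT replicates 1 to 3. It did not pass the filter on low counts and is the 1 gene of the 9 not fitted between the genotypes. Its highest counts were in KO replicate 2 and WT replicate 3, which also had the most receptor gene counts, and the receptor gene density gives 3.66 and 1.47 counts over its exon length in them.

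Cyp26b1 was the 1 fitted gene of the list with a negative difference. Cyp26b1 (ENSMUSG00000063415, chromosome 6, 84571414 to 84593908, minus strand) had 57.3, 45.8, 33.5, 26.9 and 78 CPM in KO replicates 1 to 5, against 109.5, 118.1 and 25.6 CPM in WT replicates 1 to 3. All KO libraries were below WT replicates 1 and 2 and above WT replicate 3, so the groups overlapped. The log2 fold change of Cyp26b1 was -0.81 (SE 0.48), between -1.25 without WT replicate 3 and -0.58 without WT replicate 1. Per kb of exon, the ratio of Stra6 to Cyp26b1 was 0.224, 0.459, 0.566, 1.11 and 0.24 in KO replicates 1 to 5, against 0.0314, 0.0175 and 0.204 in WT replicates 1 to 3.

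Cyp26b1 lies 1.6 Mb from Tgfa on chromosome 6. Of 189 genes fitted within 10 Mb of Tgfa, 31.7% had a negative log2 fold change, against 38.1% of all genes. Their median was 0.22, and 6 of them had a lower value than Cyp26b1. Any part of the targeted chromosome region in the Cyp26b1 value was not tested.

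The receptor gene Rarg (ENSMUSG00000001288, chromosome 15, 102234938 to 102257517, minus strand) had 221.1, 126.3, 258.8, 249.6 and 220 CPM in KO replicates 1 to 5, against 222.4, 191 and 138.6 CPM in WT replicates 1 to 3. The groups overlapped, and KO replicate 2 was the lowest library. For Rarg the log2 fold change was 0.23 (SE 0.28), and it turned to -0.13 among libraries ending in br alone.

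**Figure D2:**
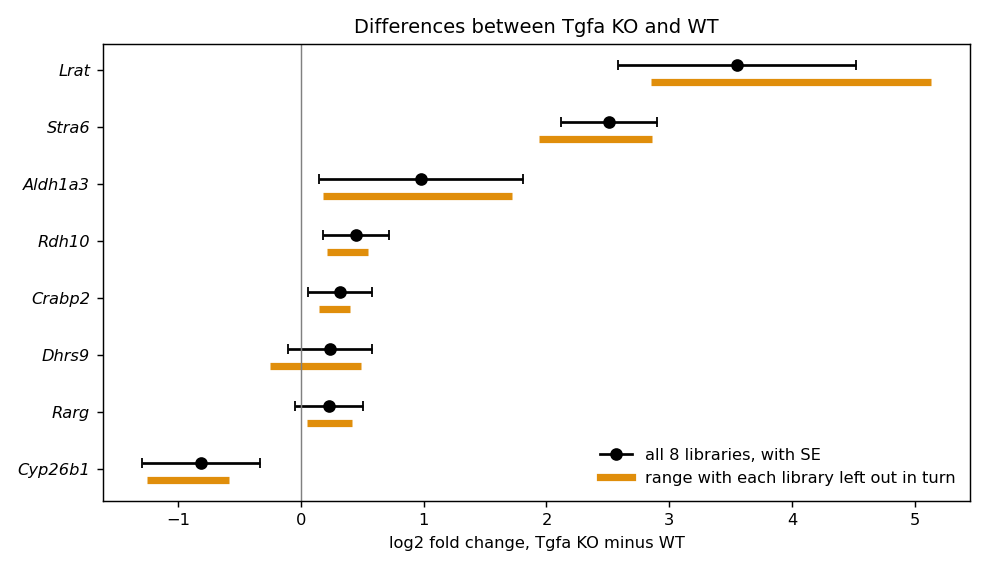
Log2 fold changes, KO minus WT, of the 8 fitted genes in edgeR, with SE (black), and their range with each library left out in turn (orange). The ranges of Lrat and Stra6 lie at 1.94 or above, and that of Dhrs9 reaches -0.25.

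Over the list, 7 of the 8 fitted genes had a positive log2 fold change, where 61.9% of all 19239 genes did, and the median was 0.38 for the list and 0.16 for all genes. Values above 1 belonged to 2 genes and values below -1 to 0, against 12.8% and 1.68% of all genes. With edgeR, 0 of the 8 passed an adjusted p of 0.05, against 0.0052% of all genes (0% lower in KO). Every KO library was above every WT library for 2 of the 8 (3.4% of all genes) and below for 0 (1.75%), together 5.15% of all genes. With library quality weights in limma voom Stra6 and Cyp26b1 passed, where 6.46% of all genes did. Without weights 0 passed, where 0% did, and with DESeq2 Stra6 and Lrat passed, where 0.319% did. The genes were chosen on this contrast, so nothing is read from these counts.

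Levels spanned a wide range along the pathway. Per length, Rarg was the highest of the 9 genes in all 8 libraries, at 52.4 ± 12.8 CPM per kb in KO and 44.8 ± 10.3 in WT (SD, n = 5 and 3, as for every ± in CPM). It made up 38.5 to 62.9% of the summed CPM per kb of the 9 genes in KO libraries and 47.8 to 50.8% in WT libraries. Crabp2 was next in all 8 libraries, at 27.1 ± 7.68 CPM per kb in KO and 21.7 ± 2.82 in WT. Cyp26b1 followed in 7 of the 8, at 9.03 ± 3.79 CPM per kb in KO and 15.8 ± 9.55 in WT. The receptor, a binding protein and the degrading enzyme thus formed the upper end of the list.

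The oxidizing enzymes and the transporter were lower. Dhrs9 was 4.87 ± 1.73 CPM per kb in KO and 4.14 ± 1.46 in WT, above Rdh10 in all 8 libraries. Rdh10 was 3.01 ± 0.809 CPM per kb in KO and 2.21 ± 0.142 in WT and Stra6 3.8 ± 1.16 CPM per kb in KO and 0.669 ± 0.297 in WT. Their order differed between the genotypes, with Stra6 above Rdh10 in 4 of the 5 KO libraries and below it in all 3 WT libraries. Aldh1a3 was 1.17 ± 1.03 CPM per kb in KO and 0.589 ± 0.492 in WT, and Lrat 1.29 ± 0.804 CPM per kb in KO and 0.112 ± 0.133 in WT. The order among Aldh1a3, Lrat and Crabp1 changed between libraries. In KO replicate 2 Crabp1, Aldh1a3 and Lrat were 4.11, 2.93 and 1.2 CPM per kb, where receptor genes averaged 0.791.

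**Figure D3:**
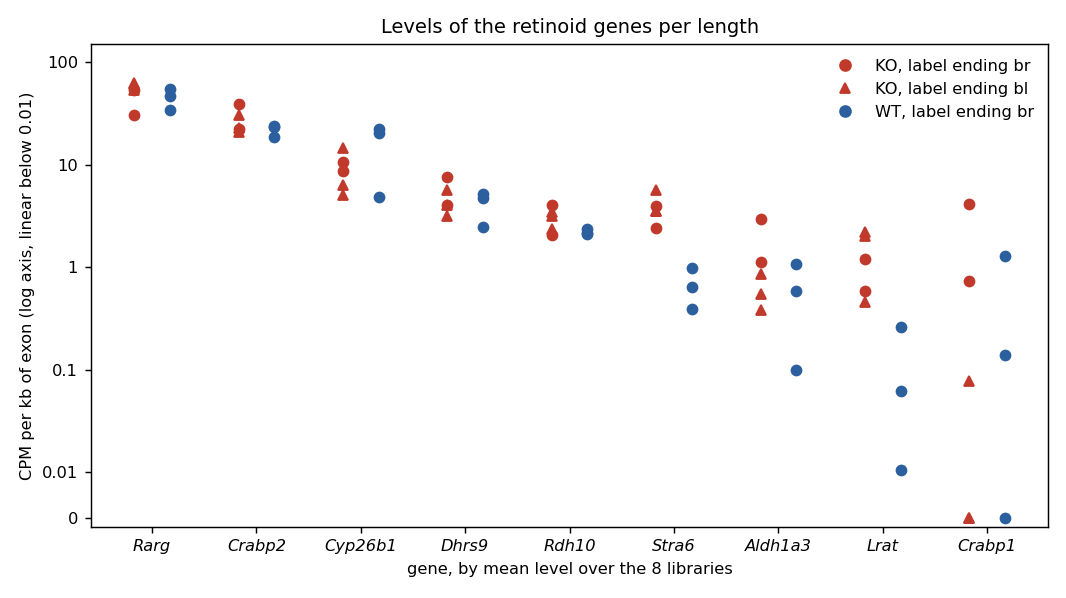
CPM per kb of exon of the 9 genes in each library (log axis, linear near 0), with KO libraries left and WT libraries right and genes in the order of their mean over the 8 libraries. Rarg and Crabp2 are highest in both genotypes, and Stra6 and Lrat have all KO points above the WT points.

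The comparison of KO libraries by name ending was not used to choose the genes, and 0 of the 9 passed in edgeR, against 0.00426% of all 23496 genes. Of the 9, 1 had an unadjusted p under 0.05, against 22.4% of all genes, and limma voom, its weighted form and DESeq2 called 0 of them. That gene was Crabp1, which passed the filter on low counts here, where the smallest group has 2 libraries, and had 1, 0 and 0 counts in the bl libraries and 8 and 19 in the br libraries, too few for a fold change. Aldh1a3 averaged 2.75 CPM in bl and 9.39 CPM in br libraries (log2 fold change -1.57, edgeR adjusted p = 0.241). Stra6 averaged 24.6 and 18.5 CPM in bl and br libraries (log2 fold change 0.58, SE 0.4, edgeR adjusted p = 0.397), and Lrat 8.35 and 4.76 CPM (edgeR adjusted p = 0.525). With 3 libraries against 2, none of these differences passed the test.

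The other genes of the pathway, listed by function without the 9, did not pass the edgeR threshold, which 1 of all 19239 genes passed. Of 52 genes 41 were tested, with 29 positive and 12 negative log2 fold changes and a median of 0.28, against 0.16 for all genes. In edgeR 0 passed in either direction and 2 had an unadjusted p under 0.05, where 6.28% of all genes did. The weighted fit called 3 (Rbp2, Fabp5 and Nrip1), limma voom 0 and DESeq2 1 (Rbp2), against 6.46%, 0% and 0.319% of all genes. The list median was -0.04 without WT replicate 2, 0.12 without WT replicate 1 and 0.13 without KO replicate 2.

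Among carriers and uptake genes, 4 of 9 were tested, all with positive values. Rbp2, which encodes a cellular retinol binding protein, had 17, 7.64, 15.9, 15.4 and 16.6 CPM in KO replicates 1 to 5, against 6.88, 4.7 and 4.53 CPM in WT replicates 1 to 3. Its groups did not overlap, although KO replicate 2 was far below the other KO libraries (log2 fold change 1.43, SE 0.32, edgeR adjusted p = 0.417). Fabp5, which encodes the epidermal fatty acid binding protein, was 112.4 ± 51.4 CPM in KO and 48.1 ± 9.72 CPM in WT (log2 fold change 1.23, edgeR adjusted p = 0.63), with KO replicate 2 inside the WT range. Scarb1, a scavenger receptor gene, was 16.3 CPM in KO replicate 2 and 0.958 to 2.78 CPM in the remaining KO libraries, against 2.85 to 4.06 CPM in WT. Its log2 fold change of 0.56 turned to -0.66 without KO replicate 2.

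Genes of ester turnover and carotenoid cleavage centred below the median of all genes. The 5 ester genes had a median log2 fold change of 0.01. The lipase gene Pnpla2 was 37.7 ± 14 CPM in KO and 49.5 ± 5.56 CPM in WT, and the lipase gene Lipe 38.4 ± 39.6 CPM in KO and 50.3 ± 24 CPM in WT. For both, the library labelled KO replicate 1 stood above the other KO libraries, and the log2 fold change of Lipe was -0.39, or -1.26 without it. Dgat1, an acyltransferase gene, was 15.9 ± 3.01 CPM in KO and 15.8 ± 0.62 CPM in WT. Bco1 and Bco2, carotenoid oxygenase genes, had log2 fold changes of -0.48 and -0.2, with the highest level of both in KO replicate 2. That of Bco1 was -1.19 without KO replicate 2 and turned to 0.23 among libraries ending in br alone and 0.33 with the name ending as a covariate.

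Of 18 other genes of retinol and retinaldehyde dehydrogenases and reductases, 16 were tested, 12 with positive values, and the median was 0.37. Sdr16c6 and Sdr16c5 were the most abundant, at 29.4 and 28.2 CPM per kb over the 8 libraries, against 4.6 for Dhrs9 and 2.71 for Rdh10. Sdr16c5, which encodes an epidermal retinol dehydrogenase, was 54.9 ± 28.7 CPM in KO and 26.6 ± 18.9 CPM in WT (log2 fold change 1.05, SE 0.65, edgeR adjusted p = 0.871). The value of Sdr16c5 was -0.07 among libraries ending in br alone and 0.55 without WT replicate 3. Adh7, an alcohol dehydrogenase gene whose product oxidizes retinol, was 66 ± 25 CPM in KO and 35.9 ± 17.7 CPM in WT (log2 fold change 0.88, edgeR adjusted p = 0.818), and 0.15 among libraries ending in br alone. Sdr16c6 was 64.9 ± 20.2 CPM in KO and 43.6 ± 11.1 CPM in WT, and Dhrs4 6.33 ± 1.98 CPM in KO and 3.75 ± 2.32 CPM in WT.

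The other aldehyde dehydrogenase genes of the pathway list and the other CYP26 genes were scarce. Aldh1a1 was 1.44 to 5.73 CPM in KO and 1.06 to 3.13 CPM in WT, Aldh1a7 1.55 to 4.69 CPM in KO and 1.29 to 2.58 CPM in WT and Aldh8a1 0.0571 to 9.2 CPM in KO and 0.616 to 3.28 CPM in WT. KO replicate 2 was the highest library for all 3, and without it the log2 fold change of Aldh8a1 was -1.73, against 0.44 with it. Aldh1a2, Cyp26a1 and Cyp26c1 did not pass the filter, with 5.21, 2.78 and 5.21 CPM in KO replicate 2 and 0.0625 CPM or less in the other KO libraries. Cyp26b1 was thus the 1 tested gene of its family.

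Of 6 other receptor genes 5 were tested, with a median of 0.17. Rxra, which encodes the partner of retinoic acid receptors, was 241.8 ± 76.9 CPM in KO and 180.5 ± 61.7 CPM in WT, a log2 fold change of 0.42 that was -0.04 among libraries ending in br alone. Rara, another retinoic acid receptor gene, was 50.8 ± 7.46 CPM in KO and 60.9 ± 13.4 CPM in WT. Ppard, which encodes a nuclear receptor for fatty acids, was 59.4 ± 24 CPM in KO and 57.4 ± 11.9 CPM in WT. Rarb, a receptor gene that retinoic acid itself induces, was 6.1 ± 2.59 CPM in KO and 3.2 ± 1.1 CPM in WT (log2 fold change 0.92, edgeR adjusted p = 0.813). The 6 coregulator genes had a median of 0.01, with log2 fold changes of -0.17 for Ncor1 and -0.47 for Nrip1, whose products repress, and 0.19 for Ncoa3, whose product activates.

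Genes that respond to retinoic acid did not pass the edgeR threshold, which 1 of all 19239 genes passed. Of 12 genes known to be induced 10 were tested, 7 positive and 3 negative, with a median log2 fold change of 0.39. Rarb and Dhrs3 are among those that are also in the pathway list. Tgm2, a transglutaminase gene, was 17.5 CPM in KO replicate 2 and 1.06 to 1.62 CPM in the remaining KO libraries, against 0.728 to 3.05 CPM in WT. Its log2 fold change of 1.53 turned to -0.2 without KO replicate 2. Hbegf, which encodes an EGF receptor ligand, was 66.5 ± 8.39 CPM in KO and 81.3 ± 60.8 CPM in WT, with WT replicate 3 at 11.3 CPM, and Rarres1 55 ± 16 CPM in KO and 65.2 ± 23.9 CPM in WT.

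Of 7 epidermal differentiation genes known to be lowered by retinoic acid all were tested, 4 positive and 3 negative, with a median of 0.49. Over both target lists 0 of 17 passed in edgeR (0.0052% of all genes) and 2 had an unadjusted p under 0.05 (6.28% of all genes). The weighted fit called 2 (Krt1 and Krt2), limma voom 0 and DESeq2 1 (Krt2), against 6.46%, 0% and 0.319% of all genes. Krt2, a keratin gene of differentiated layers, had 14.2, 9.9, 62.1, 13.2 and 73 CPM in KO replicates 1 to 5, against 5.15, 6.15 and 1.88 CPM in WT replicates 1 to 3. Every KO library was above every WT library, with KO replicates 3 and 5 far above the rest (log2 fold change 2.97, SE 0.81, edgeR adjusted p = 0.553). Among libraries ending in br alone the value of Krt2 was 1.39. Krt1 was 4081.3 ± 1437.5 CPM in KO and 1501.3 ± 982.1 CPM in WT (log2 fold change 1.44, edgeR adjusted p = 0.713), with KO replicate 2 inside the WT range. Krt10 was 8293.6 ± 2855.8 CPM in KO and 5903 ± 1721.2 CPM in WT, with overlapping groups. Flg, the filaggrin gene, had 3934.8, 122.4, 264.8, 345 and 2262 CPM in KO replicates 1 to 5, against 321.8, 210.3 and 1062.2 CPM in WT replicates 1 to 3. The library labelled KO replicate 1 and KO replicate 5 were above all others and the other 3 KO libraries were low, and the log2 fold change of 1.38 was 0.48 without the library labelled KO replicate 1 and 2.38 without WT replicate 3.

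**Figure D4:**
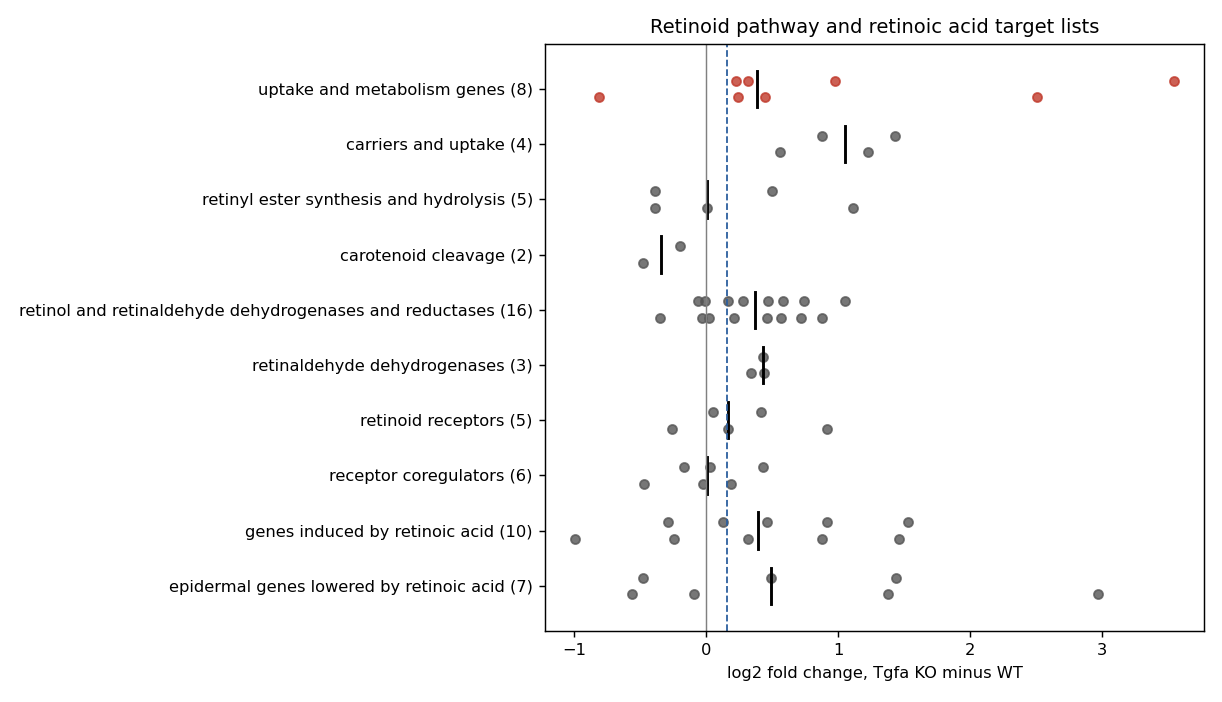
Log2 fold changes, KO minus WT, of the tested genes of each list (points), with the list median as a bar and the median of all genes tested (0.16) as a dashed line. List medians lie between -0.34 and 1.06, and 0 of the points passed the edgeR threshold, which 0.0052% of all genes passed.

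The genes that followed Stra6 most closely over the 8 libraries were found by the root mean square difference of centred log2 CPM among 11131 genes of at least 5 CPM on average. They were Lrrc32 (0.41), Inhbb (0.46), Flt1 (0.47), Postn (0.48) and Igfbp4 (0.49), each a difference in log2 units, where the median of all genes compared was 1.3. Postn, which encodes the matrix protein periostin, was 127.8 to 269.6 CPM in KO and 31.4 to 74.4 CPM in WT. Inhbb, which encodes an activin subunit, was 6.04 to 16.1 CPM in KO and 1.95 to 2.65 CPM in WT. Flt1, which encodes a receptor for vascular endothelial growth factor, was 17.1 to 38.7 CPM in KO and 2.84 to 7.35 CPM in WT. Of the other 8 retinoid genes Lrat was nearest to Stra6 (0.66) and Cyp26b1 farthest (1.83). Since Stra6 was chosen for its pattern over these libraries, this order is a description.

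Markers of other cells that isolated epidermis can hold overlapped between the groups when summed. Upper hair follicle markers were 958.2 to 2143.2 CPM in KO and 896.2 to 1990.2 CPM in WT, and bulge markers 579.2 to 841.7 CPM in KO and 365.7 to 1258.1 CPM in WT. Sebaceous gland markers were 496 to 722.8 CPM in KO and 584.6 to 770.8 CPM in WT, with Awat1 and Pparg under 1 CPM on average. Scd1 made up most of each sebaceous sum, at 425 to 645 CPM in KO and 541.8 to 738.4 CPM in WT (log2 fold change -0.29). Of the 7 sebaceous markers tested 5 had a positive log2 fold change, where 61.9% of all genes did. These 3 lists hold 7, 6 and 8 markers. Within them, 4 markers had every KO library above every WT library, as Stra6 and Lrat did, against 3.4% of all genes. Another 1 had every KO library below, against 1.75% of all genes. All were named after their values were seen. Above were Krt79 and Sostdc1 of the upper follicle list, at 248.2 to 604.8 and 12.3 to 47.4 CPM in KO against 107.9 to 163.2 and 5.16 to 10.1 CPM in WT, and Postn of the bulge list, whose values are given with the genes like Stra6. Mgst1 of the sebaceous list was also above, at 6.19 to 18.2 CPM in KO and 3.05 to 3.57 CPM in WT. Below was Plet1 of the upper follicle list, at 41.3 to 229.5 CPM in KO and 256.3 to 537.2 CPM in WT. Fibroblast markers were 3.94 to 75.4 CPM in KO and 34.3 to 40 CPM in WT, with Lum and Dpt under 1 CPM on average. Endothelial markers were 2.19 to 42 CPM in KO and 1.18 to 9.07 CPM in WT, with Cldn5 under 1 CPM, and adipocyte markers 0.171 to 20 CPM in KO and 0.616 to 6.17 CPM in WT, with Adipoq and Lep under 1 CPM. The highest fibroblast, endothelial and adipocyte sums were in KO replicate 2. Hair matrix and inner root sheath markers were 299.8 to 1000.7 CPM in KO and 543.9 to 1028.1 CPM in WT. Gata3 made up most of each of these sums, at 256.3 to 1012.3 CPM over the libraries. Apart from Gata3 and Msx2, the markers of that list were highest in KO replicate 5. There Krt71, Krt25 and Krt27 were 188.6, 102.5 and 36.3 CPM, against at most 13.2, 11.8 and 5.73 CPM in any other library. Melanocyte markers were 7.89 to 23.1 CPM in KO and 8.13 to 18.3 CPM in WT, with Tyr and Mlana under 1 CPM. Langerhans cell markers were 288.8 to 884.4 CPM in KO and 658.1 to 893.8 CPM in WT. The overlap came from the library labelled KO replicate 1 alone, since KO replicates 2 to 5 were 288.8 to 480.6 CPM, below every WT library, and all 5 markers had a negative log2 fold change. Summed T cell markers were 55.6 to 143.9 CPM in KO and 29.2 to 77 CPM in WT and skeletal muscle markers 0.75 to 23.8 CPM in KO and 2.91 to 8.13 CPM in WT. Outside the follicle and sebaceous lists, Thy1 of the T cell list alone had groups that did not overlap, at 36.8 to 77.2 CPM in KO and 9.3 to 35.7 CPM in WT. Of all genes 5.15% had groups that did not overlap. The part of these cells in the values of the retinoid genes was not tested.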

How the data were processed

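Epidermal RNA of 5 Tgfa KO and 3 WT libraries was measured by RNA sequencing. The deposited values are whole-number read counts per gene, 1 file a library, without normalization, per the file headers. The submitters' processing notes name STAR 2.5.2b, Trimmomatic 0.36 and Subread 1.5.2 with featureCounts, and the builds GRCm38 and GRCh38. Coordinates follow the files, which hold mouse genes. Strand settings were not given in the labels. Gene identifiers were matched to symbols for 48970 of 49315 genes. Replicates were numbered in order of deposition and pair no libraries.

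The main test was that of edgeR 4.0.16 under R 4.3.3 (quasi-likelihood, robust, TMM, filterByExpr with a minimum count of 10, Benjamini-Hochberg over all genes, threshold 0.05), on KO against WT and on KO bl against KO br with WT in the fit. Alternatives were DESeq2 1.42.0, limma 3.58.1 voom with and without library weights, other factors, filters and covariates, and libraries left out. Scripts were tested on simulated counts. Likeness to Stra6 used a pseudocount of 0.5.

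The 9 genes, the lists and the alternatives were chosen with earlier results of these data known. Named from each list were the 2 tested genes of highest CPM per kb and up to 2 more of largest absolute log2 fold change at a mean of 2 CPM or more, of which some are not reported here. No intervals are printed for single counts, as counting error is only part of their spread. The promoters of Crabp2, Rdh10 and Aldh1a3 were not analysed here.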

Additional observations from a re-analysis of the deposited data

Results flagged for a closer look

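Among 40 genes examined in the 5 KO libraries, 12 had 1 library far from the other 4, by a test whose chance rate is about 1 in 20 groups. KO replicate 2, the shallowest library and the one with the most receptor gene counts, stood apart for 10 of them. It was the highest KO library for Crabp1 (3.3 CPM), Scarb1 (16.3 CPM), Bco2 (3.3 CPM), Aldh1a1 (5.73 CPM), Aldh8a1 (9.2 CPM), Rarb (10.6 CPM) and Tgm2 (17.5 CPM). It was the lowest KO library for Rbp2 (7.64 CPM), Rxra (107.2 CPM) and Krt1 (1547.2 CPM). The library labelled KO replicate 1, whose Tgfa level was above every WT library, was the highest KO library for the lipase genes Lipe (107.8 CPM) and Pnpla2 (62.1 CPM). The genes where KO replicate 2 was highest averaged 5.01 CPM or less over the 8 libraries. Rbp2, Rxra and Krt1, where it was lowest, averaged 11.1, 218.8 and 3113.8 CPM. Neither library stood apart in this way for Stra6 or Lrat.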

How the results depend on the processing

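Of the 9 retinoid genes, 6 to 8 had a positive log2 fold change in every setting. Among the 8 genes of the main fit, Dhrs9 and Rarg changed direction in some settings. The rest, Stra6, Lrat, Cyp26b1, Crabp2, Rdh10 and Aldh1a3, kept their directions in all of them. The number of genes passing for KO against WT was 1 in edgeR, 137 in DESeq2, 0 in limma voom, 1243 with library weights, 0 with upper quartile factors, 9 without a filter, 0 among br libraries alone, 1883 without WT replicate 3 and KO replicates 1 and 2, and 0 to 1 with each library left out. In the pathway list 0 passed in edgeR, 1 in DESeq2, 3 with weights and 7 without the 3 libraries, and in the target lists 0, 1, 2 and 3. Of all genes 0.0052%, 0.319%, 6.46% and 10.6% passed in these settings. Without the 3 libraries every KO library ends in bl and every WT library in br, so genotype and name ending cannot be told apart there. The pathway median of 0.28 was 0.12 in limma voom, 0.13 with weights, 0.38 without a filter, 0.13 without the 3 libraries and -0.04 to 0.36 with each library left out. The median of induced genes, 0.39, was 1.03 among br libraries alone and 0.06 to 0.67 with each left out, and that of lowered genes, 0.49, was 0.28 to 0.75. For KO bl against KO br the count was 1 in edgeR, 2466 in DESeq2, 2 with weights, 0 with library totals or upper quartile factors, 3324 without a filter, 0 with a 1 CPM filter, 0 in the KO libraries alone and 0 to 4190 with each library left out (4190 without the library labelled KO replicate 1, 124 without KO replicate 2), while 0 of the 9 genes passed in any of these. Without division by length 3 of the 9 genes kept their rank, and 7 to 9 did with each library left out. The cause of these differences was not tested. The median log2 fold change of all genes ran from -0.06 to 0.53 over the settings. Depth limits Crabp1 in all libraries and Lrat in WT libraries, with at most 19 and 18 counts in a library. No paired analysis was possible because the labels give no replicate numbers that pair libraries.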
